A study of Mus musculus with 10 samples.

Results

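Fibroblasts and mesenchymal cells share a set of genes for extracellular matrix, growth factor receptors and lineage regulators, and 10 of them are described here in sorted sacral neural crest progenitors (NCPs) of the mouse. The genes are *Postn*, *Dcn*, *Lum*, *Bgn*, *Ogn*, *Fmod*, *Pdgfra*, *Pdgfrb*, *Twist1* and *Thy1*. They were taken from a list of symbols with no rule on their values, but the list was chosen with earlier results of these data known. They are 10 of the 19937 genes that the arrays measured with a probe set of their own. Each of the 10 genes is represented by 1 probe set. NCPs at embryonic day 13 were compared with whole embryos on Affymetrix mouse Gene 1.0 ST arrays, with 3 arrays of NCPs and 7 of total embryo.

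The NCPs were YFP-positive cells sorted from *Sox10*-H2BVenus transgenic fetuses (C3Fe.Tg(Sox10-HIST2H2BE/Venus)ASout), in which *Sox10* regulatory sequence drives a nuclear fluorescent histone. The labels describe the starting tissue as sub-dissected lower urogenital tract, with bladder, adjacent vessels, pelvic ganglia and urethra, dissociated in Accumax. The study's methods name fetal lower urinary tract or dissected pelvic ganglia, with tissue of several fetuses pooled per sample. The fluorescent protein marks neural crest progenitors and glia and stays for a time in young neurons, so the sort does not hold progenitors alone. The 3 NCP arrays carry 3 RNA codes in their titles. The 7 total embryo arrays were taken as 2 RNA codes, on 4 and 3 arrays, with 1 title that spells its code slightly differently counted among the 4, and the labels give neither stage nor genotype for them. Repeat arrays of an RNA code may differ only technically. The p-values measure differences against the spread of arrays pooled within both groups, in which such repeat arrays are counted as independent. Whole embryo RNA is a mixture of cell types, so a lower value can stand for fewer cells of a type or less RNA per cell, which cannot be told apart.

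Mesenchyme is the loose embryonic tissue that lies between epithelia and gives rise to fibroblasts, smooth muscle, cartilage and bone. Its cells secrete collagens together with small leucine-rich proteoglycans, which bind collagen and set fibril width, and matricellular proteins, which link matrix to cell surface receptors. Platelet-derived growth factor (PDGF) receptors carry growth and migration signals in these cells. In the fetal bladder, mesenchyme surrounds the pelvic ganglia into which sacral neural crest cells migrate. Cranial neural crest itself forms mesenchyme, whereas sacral neural crest is known for neurons and glia. In the study's cultures, sorted sacral progenitors also formed colonies that held myofibroblasts, which were stained for smooth muscle actin.

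The values are robust Multi-Array Average (RMA) values, which are log2 of probe set intensity, so that a difference of 1 is a 2-fold change. The NCP arrays spanned a narrower range than the total embryo arrays. The standard deviation (SD) over all 28192 probe sets was 0.97 to 1.13 on the NCP arrays and 1.78 to 1.91 on the total embryo arrays. Olfactory receptor (*Olfr*) genes, which few cells outside the nose express, served as background, and the 95th percentile of 1015 such genes was 6.66 to 6.88 on the NCP arrays and 5.35 to 5.54 on the total embryo arrays. The share of genes above that percentile was 20.0, 15.1 and 26.0% on NCP arrays 1, 2 and 3 and at least 67.4% on each total embryo array. NCP array 2 stood lowest in housekeeping genes, whose median exceeded that of *Olfr* genes by 0.71 there, against 3.06 and 4.19 on NCP arrays 1 and 3 and 6.75 to 7.39 in total embryo. *Sox10*, which marks the sorted cells, was above background on all 3 NCP arrays (7.95, 7.14 and 7.60) and higher than in total embryo, where it averaged 6.56 (95% interval of the difference 0.62 to 1.39, adjusted p = 0.000278).

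Fibroblast and mesenchyme genes were lower in NCPs than in total embryo, except *Twist1*. Of the 10 genes, 9 fell (adjusted p under 0.05 in limma) and none rose, with *Thy1* among the 9 but slightly above 0 after a level adjustment and after cyclic loess, and *Pdgfrb* among them with no decrease that background allows to be bounded. By comparison, 27.5% of all probe sets fell and 39.6% rose. Bright probe sets fell more often. In groups 9 and 10 of 10 by total embryo level, which hold 3 and 4 of the genes, 84.7 and 86.3% fell. All 9 measured housekeeping genes fell too (median −2.69). The median log2 fold change, NCP minus total embryo, was −1.96 over the 10 genes and 0.23 over all probe sets. The groups did not overlap in 8 genes, each NCP array being below each total embryo array, an arrangement seen in 21.5% of probe sets. All 10 genes exceeded the *Olfr* 95th percentile on every total embryo array, as did 56.1% of probe sets. On the NCP arrays only *Twist1* did so on all 3, *Postn* and *Dcn* did on 2, *Ogn* on 1 and the other 6 on none, where 6.95% of probe sets exceeded it on all 3. Without NCP array 2, 9 genes fell, as did 26.3% of probe sets, and 3 genes (*Postn*, *Dcn* and *Twist1*) were above background on both other NCP arrays, as were 13% of probe sets.

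**Figure D1:**
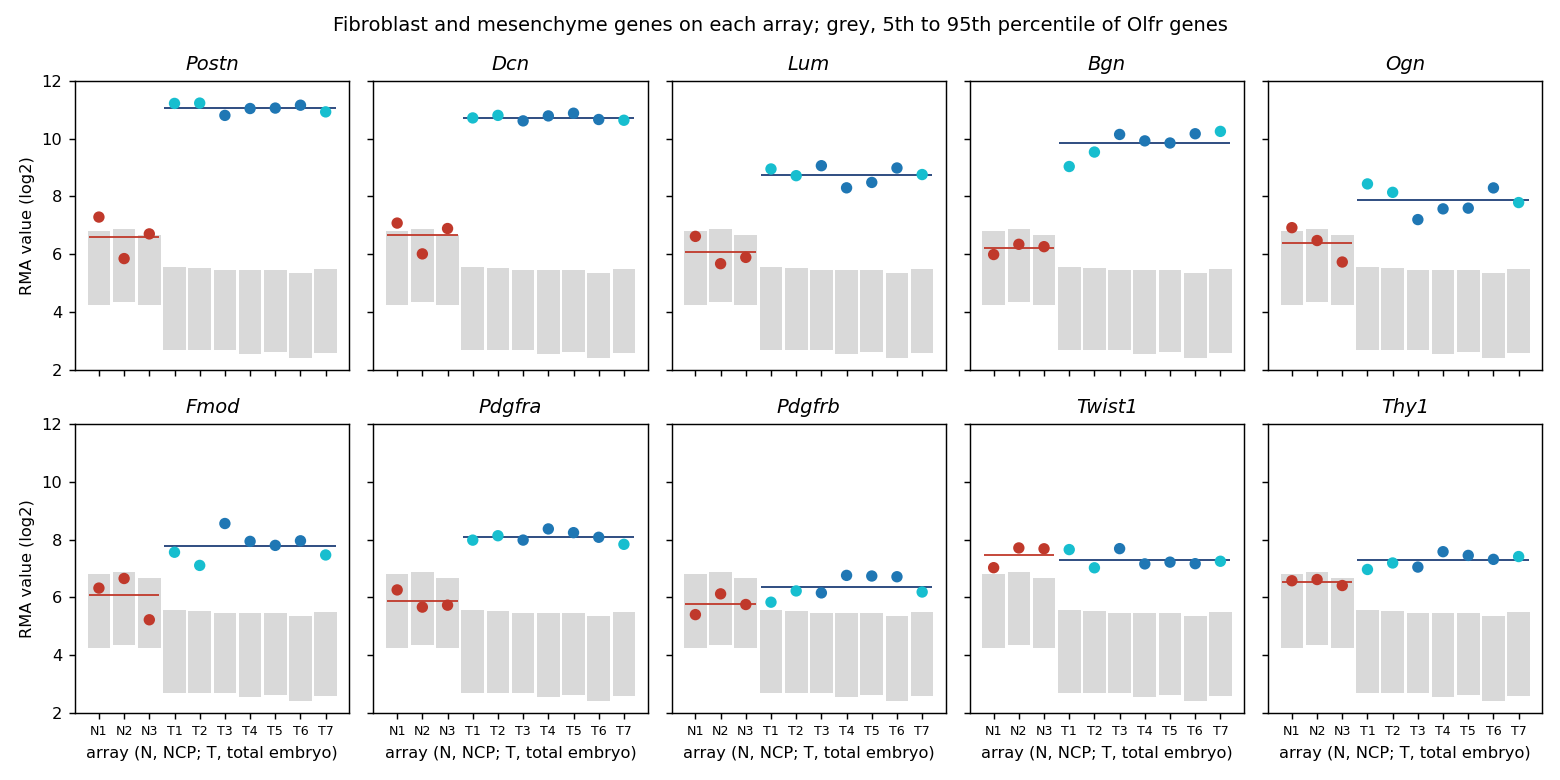
RMA value (log2, vertical axis) of each of the 10 genes on the 3 NCP arrays (N1 to N3, red) and the 7 total embryo arrays (T1 to T7), with dark and light blue for the RNA codes on 4 and 3 arrays. Horizontal lines are group means and grey bars run from the 5th to the 95th percentile of *Olfr* genes on that array; NCP points of *Lum*, *Bgn*, *Fmod*, *Pdgfra*, *Pdgfrb* and *Thy1* all lie inside the grey bars, and those of *Twist1* all lie above them.

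The matrix genes *Postn*, *Dcn*, *Bgn* and *Lum* had the largest decreases of the 10. *Postn* encodes periostin, a matricellular protein of connective tissue and of embryonic cushions and periosteum. RefSeq (GRCm38.p6) gives this gene 2 start sites, and the 150 bases before each are shown because *Postn* had the largest fold change of the 10. Both run 5′ to 3′ on the plus strand, the upstream start at chr3:54359117-54359266 and the downstream start at chr3:54360957-54361106, with any match to the motifs named below in capitals.
Postn upstream start: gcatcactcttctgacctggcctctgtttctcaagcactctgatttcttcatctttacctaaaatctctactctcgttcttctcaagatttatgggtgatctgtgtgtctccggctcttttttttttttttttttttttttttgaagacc
Postn downstream start: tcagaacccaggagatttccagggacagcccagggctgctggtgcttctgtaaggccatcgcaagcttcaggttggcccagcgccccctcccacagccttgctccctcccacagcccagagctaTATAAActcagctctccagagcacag
The capitals in the downstream window are TATAAA, the TATA box letters, whose left end is 26 bases before the start (all distances here run from a motif's left end). The upstream window held none of the motifs searched. The motifs were the TATA box TATAAA, the CCAAT box, the GC box GGGCGG and the E-box CANNTG (which basic helix-loop-helix factors such as TWIST1 bind), searched on both strands in 250 bases before the start. These were present in 12.4, 33.8, 32.7 and 66.2% of 32851 windows of that length.

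*Postn* measured 7.29, 5.85 and 6.70 on NCP arrays 1, 2 and 3. In total embryo it ranged from 10.81 to 11.24 with a median of 11.06. The groups were separated by 3.52 on the log2 scale, the gap between the lowest total embryo array and the highest NCP array. The means were 6.61 ± 0.72 (SD, n = 3 arrays) and 11.07 ± 0.16 (SD, n = 7 arrays), a log2 fold change of −4.45 (95% interval −5.00 to −3.91, adjusted p = 3.35e-08) or 21.9-fold lower. Only 0.284% of probe sets had a more negative fold change. NCP arrays 1 and 3 placed *Postn* at the 98.3 and 95.8 percentile of *Olfr* genes, just over background, and NCP array 2 at the 60.4 percentile. With the value of NCP array 2 raised to the *Olfr* 95th percentile, *Postn* was 17.3-fold lower. These folds hold on the deposited scale only, and after a level adjustment *Postn* was 3.72-fold lower.

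*Dcn* encodes decorin, a small leucine-rich proteoglycan that binds fibrillar collagen and transforming growth factor beta. Its values were 7.08, 6.01 and 6.89 on NCP arrays 1, 2 and 3, and in total embryo they ranged from 10.62 to 10.89 with a median of 10.72. As with *Postn*, NCP array 2 was the lowest, and the groups were far apart (gap 3.54). *Dcn* had a log2 fold change of −4.07 (95% interval −4.53 to −3.62, adjusted p = 1.95e-08), or 16.8-fold lower. It was above background on NCP arrays 1 and 3 but not on array 2. With that array's value raised to the *Olfr* 95th percentile it was 13.8-fold lower. Both folds hold on the deposited scale only, and after a level adjustment *Dcn* was 2.98-fold lower. *Dcn* varied little among the total embryo arrays, with an SD of 0.099 against 0.57 among the NCP arrays.

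*Bgn* encodes biglycan, the close relative of decorin, which is deposited in cartilage, bone and connective tissue. The 150 bases before its start, at chrX:73483451-73483600 on the plus strand, are shown because they hold several of the motifs searched.
Bgn: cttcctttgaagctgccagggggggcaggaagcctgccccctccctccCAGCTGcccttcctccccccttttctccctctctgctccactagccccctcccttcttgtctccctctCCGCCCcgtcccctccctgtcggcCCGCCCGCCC
The capitals mark GC boxes read on the minus strand (CCGCCC), of which the 2 nearest the start overlap, and, further upstream, an E-box (CAGCTG) at 102 bases before the start. *Bgn* measured 5.99, 6.34 and 6.26 on NCP arrays 1, 2 and 3. In total embryo it ranged from 9.04 to 10.26 with a median of 9.93. All NCP values were inside the background range while every total embryo value was well outside it. *Bgn* had a log2 fold change of −3.65 (95% interval −4.19 to −3.11, adjusted p = 1.35e-07). Since no NCP array measured *Bgn* above the *Olfr* 95th percentile, the decrease is a bound. In deposited values it was at least 8.38-fold when each NCP value is raised to that percentile. This bound and those below hold on the deposited scale only, and after a level adjustment *Bgn* was 2.48-fold lower.

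*Lum* encodes lumican, the keratan sulphate proteoglycan of cornea and other collagen-rich tissue. It measured 6.62, 5.67 and 5.89 on NCP arrays 1, 2 and 3, against 8.30 to 9.07 with a median of 8.76 in total embryo. The groups did not overlap, and NCP array 1 lay just under the upper edge of background. *Lum* had a log2 fold change of −2.69 (95% interval −3.20 to −2.19, adjusted p = 7.46e-07), at least 3.92-fold lower as a bound.

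*Fmod* and *Ogn* encode fibromodulin and osteoglycin (mimecan), proteoglycans of tendon, cartilage and bone. *Fmod* measured 6.32, 6.65 and 5.22 on NCP arrays 1, 2 and 3, against 7.10 to 8.55 with a median of 7.80 in total embryo. *Ogn* measured 6.92, 6.47 and 5.73, against 7.20 to 8.44 with a median of 7.79. Here NCP array 3, not array 2, was the lowest, and the gaps between the groups were small, at 0.45 for *Fmod* and 0.28 for *Ogn*. The log2 fold change was −1.70 for *Fmod* (standard error 0.33, adjusted p = 0.00052), at least 1.98-fold as a bound. For *Ogn*, which was above background on NCP array 1 alone, it was −1.49 (95% interval −2.14 to −0.84, adjusted p = 0.000746). Both calls were lost after a level adjustment (−0.42 and −0.13) and after cyclic loess (−0.62 and −0.23). They were also lost with a single total embryo array as control, where the differences were −1.50 (adjusted p = 0.21) and −2.06 (adjusted p = 0.0953).

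Both PDGF receptor genes fell in the deposited values. *Pdgfra* encodes the alpha receptor, found on mesenchymal progenitors of most organs. It measured 6.25, 5.66 and 5.73 on NCP arrays 1, 2 and 3, against 7.83 to 8.37 with a median of 8.08 in total embryo. No array of either group came near the other (gap 1.58). The log2 fold change was −2.21 (95% interval −2.60 to −1.82, adjusted p = 4.98e-07), at least 2.47-fold lower as a bound. *Pdgfrb* encodes the beta receptor, known from pericytes and vascular smooth muscle. It measured 5.40, 6.12 and 5.75 on NCP arrays 1, 2 and 3, all within background, against 5.83 to 6.76 with a median of 6.22 in total embryo. NCP array 2 lay above the lowest total embryo array, so the groups overlapped. The log2 fold change was −0.61 (95% interval −1.13 to −0.096, adjusted p = 0.0367). The total embryo mean, 6.37, was itself below the *Olfr* 95th percentile of every NCP array (6.66 to 6.88), so no bound on a decrease can be given. The call was lost in 14 of 28 alternative settings. The difference was −0.32 against the 3 total embryo arrays of the same title series (adjusted p = 0.374) and −0.074 against the total embryo array of the same title ending (adjusted p = 0.951). Leaving out NCP array 1 or 3 or any of total embryo arrays 4, 5 and 6 also ended the call, with values from −0.61 to −0.44.

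*Twist1* encodes a basic helix-loop-helix factor that specifies mesenchyme, including the mesenchyme of cranial neural crest. The 150 bases before its start, at chr12:33957521-33957670 on the plus strand, are shown because *Twist1* was the exception among the 10 genes.
Twist1: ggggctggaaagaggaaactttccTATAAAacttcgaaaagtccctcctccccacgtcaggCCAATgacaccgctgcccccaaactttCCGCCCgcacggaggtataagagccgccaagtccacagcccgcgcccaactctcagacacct
From left to right the capitals are the TATA box letters at 126 bases before the start, the CCAAT box letters at 89 and, on the minus strand, the GC box letters at 62. In the 7 windows of the 6 genes whose start site sequence was given, the TATA box letters were found in 3 and the CCAAT box letters in 1. The GC box letters were found in 2 and the E-box letters in 4 (those of *Bgn*, *Ogn*, *Fmod* and *Pdgfra*). These are matches of letters at any distance in the window, and their use was not tested. *Twist1* measured 7.02, 7.71 and 7.68 on NCP arrays 1, 2 and 3. In total embryo it ranged from 7.02 to 7.68 with a median of 7.22. The groups overlapped, with NCP array 1 at the bottom of the total embryo range, array 3 near its top and array 2 above it. The means were 7.47 ± 0.39 (SD, n = 3 arrays) and 7.30 ± 0.26 (SD, n = 7 arrays), with a difference of 0.17 (95% interval −0.29 to 0.62, adjusted p = 0.498).

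The NCP arrays placed *Twist1* at the 96.8, 99.4 and 99.7 percentile of *Olfr* genes. Among all genes of the same array it stood at the 86.4, 97.1 and 94.2 percentile in NCPs and between the 71.7 and 82.7 percentile in total embryo. Its direction depended on scaling. It was higher in NCPs after a level adjustment (1.05, 95% interval 0.58 to 1.52, adjusted p = 0.00595), after cyclic loess (1.36) and after a further quantile normalization (1.20), and in the latter settings 16.9 and 22.6% of probe sets were higher. It was lower when arrays were centred on *Olfr* genes (−1.45, adjusted p = 2.39e-05). That last centring moved the median of all probe sets to −1.39, and 76% of them were then called lower.

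*Thy1* encodes a surface glycoprotein carried by fibroblasts, neurons and thymocytes. It measured 6.57, 6.61 and 6.41 on NCP arrays 1, 2 and 3, the tightest group of the 10 genes (SD 0.11). In total embryo it ranged from 6.96 to 7.58 with a median of 7.31, and no array overlapped. The log2 fold change was −0.75 (95% interval −1.12 to −0.38, adjusted p = 0.00193), at least 1.41-fold as a bound, but it was 0.11 (adjusted p = 0.686) after a level adjustment and 0.10 after cyclic loess.

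In these arrays the fold change of a probe set went with its level in total embryo. When probe sets were split into 10 groups of equal size by that level, the median log2 fold change was 2.08 for the dimmest probe sets and −2.16 for the brightest. *Postn*, *Dcn*, *Lum* and *Bgn* belong to the brightest group, where 86.3% of probe sets fell. *Ogn*, *Fmod* and *Pdgfra* are in group 9, where 84.7% fell with a median of −1.38. *Twist1* and *Thy1* are in group 8 (63.5%, median −0.76) and *Pdgfrb* is in group 6 (8.66%, median 0.076). Of the 10 genes, 8 lay below the median of their group, and *Twist1* lay above it, with *Thy1* (−0.75) close to it.

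**Figure D2:**
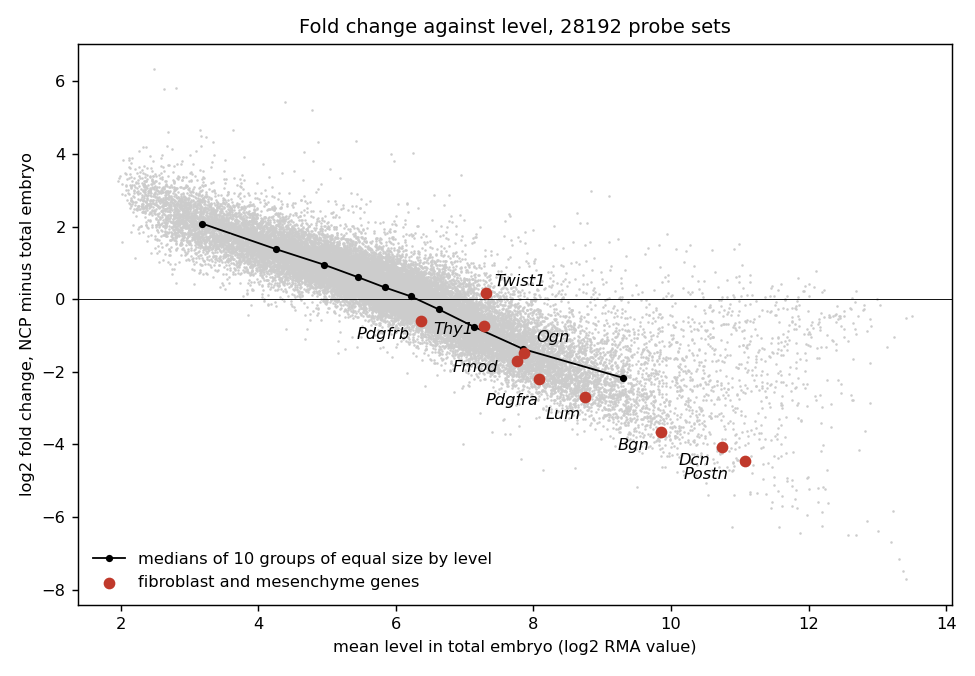
Log2 fold change, NCP minus total embryo (vertical axis), against mean RMA value in total embryo (log2, horizontal axis) for 28192 probe sets (grey), with the 10 genes in red and the medians of 10 level groups as a black line. *Twist1* lies above the line, *Ogn* and *Thy1* lie close to it, and *Postn*, *Dcn* and *Bgn* lie lower than its right end.

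A level adjustment, which subtracts from each array its lowess trend against the total embryo mean, gives each gene's difference relative to others of like level. After it 5 of the 10 genes were lower, 1 was higher and 4 did not pass the threshold, where 8.29% of all probe sets were lower and 10.3% higher. *Postn* was at −1.90 (adjusted p = 0.000303), *Dcn* at −1.58 (adjusted p = 0.000283) and *Bgn* at −1.31 (adjusted p = 0.012). *Pdgfra* (−0.67, adjusted p = 0.0201) and *Lum* (−0.72, adjusted p = 0.0417) also passed, and *Pdgfrb* did not (−0.56, adjusted p = 0.116). The median over the 10 genes was −0.62, against −0.013 over all probe sets. Without NCP array 2 the count was again 5 (12.3% of probe sets were then lower), with *Pdgfrb* (−0.76, adjusted p = 0.0422) passing and *Lum* (−0.67, adjusted p = 0.0775) not. After adjustment the NCP and total embryo arrays still did not overlap for *Postn*, *Dcn* and *Pdgfra*, and 7.63% of probe sets were non-overlapping in that direction. The part of the narrow range of the NCP arrays in the deposited differences was not tested.

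**Figure D3:**
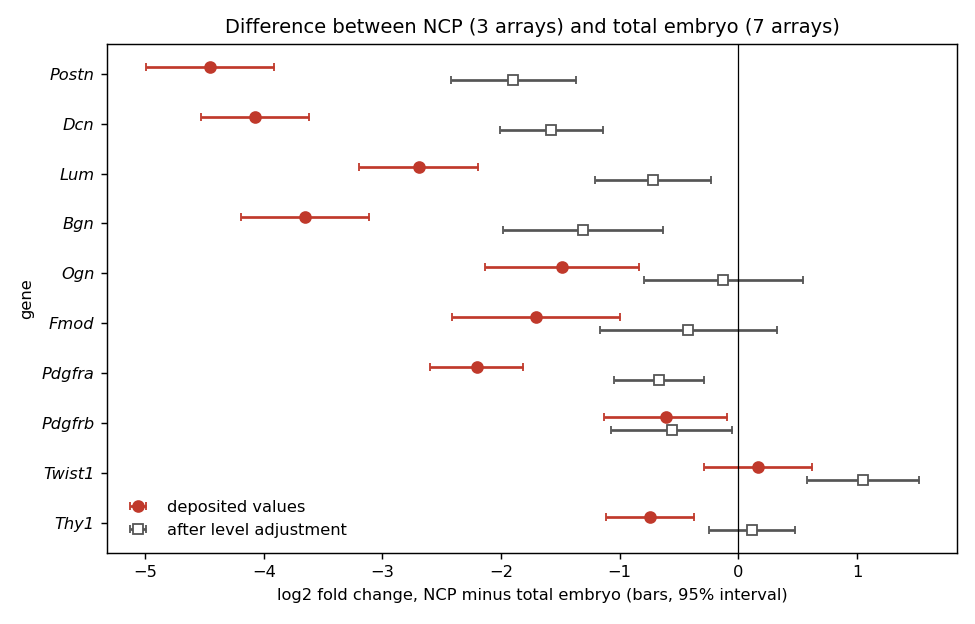
Log2 fold change, NCP minus total embryo, with 95% intervals from limma for the 10 genes, from deposited values (red circles) and after level adjustment (open squares). From deposited values *Twist1* alone has an interval across 0; after adjustment *Postn*, *Dcn* and *Bgn* remain furthest below 0, *Twist1* is above it (1.05) and *Ogn*, *Fmod* and *Thy1* have intervals across it.

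The NCP arrays were not alike in these genes. The median difference of the 10 genes from their total embryo means was −1.64, −1.91 and −2.45 on NCP arrays 1, 2 and 3. NCP array 1 was the nearest to total embryo for 5 genes and NCP array 2 for the other 5. *Postn* and *Dcn* were highest on NCP array 1 and lowest on array 2, whereas *Fmod* and *Ogn* were lowest on array 3. On NCP arrays 1, 2 and 3, 4, 1 and 3 of the 10 genes were above background, beside 20.0, 15.1 and 26.0% of all genes.

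The RNA codes of total embryo were compared without a test. For *Fmod* the 4 arrays of one code, at 7.80 to 8.55, all lay above the 3 of the other, at 7.10 to 7.56, an order seen in 5.49% of probe sets, with the reverse in 6.14%. The difference of 0.69 is smaller than the decrease in NCPs. The codes overlapped for the other 9 genes, with differences (the code on 4 arrays minus that on 3) of 0.51 for *Pdgfrb*, −0.46 for *Ogn* and 0.41 for *Bgn* and between −0.11 and 0.18 for the rest. When arrays were averaged per code, so that 3 NCP values met 2 of total embryo, 7 genes fell and *Pdgfrb* (−0.58, adjusted p = 0.235) and *Thy1* (−0.74, adjusted p = 0.0867) did not pass, where 14.8% of probe sets fell. The titles of the NCP arrays share their ending with only 1 total embryo array. Against that array alone, which is assumed to vary like the 3 NCP arrays since these give the whole spread between arrays, *Postn*, *Dcn*, *Lum* and *Bgn* passed as lower, as did 2.45% of probe sets.

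Most other genes of the same families and roles also fell in the deposited values. Outside the 10 genes, 77 of 80 listed genes were measured, of which 54 fell, 3 rose and 20 did not pass, with a median of −1.29, where 27.5% of all probe sets fell and 39.6% rose. After level adjustment 11 of the 77 were lower and 3 higher, with a median of −0.19, where 8.29% of all probe sets were lower and 10.3% higher. Of the 77, *Nyx* and *Cthrc1*, named after their values were seen, and *Vim* exceeded background on all 3 NCP arrays, where 6.95% of all probe sets did.

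Among the other small leucine-rich proteoglycans 6 of 11 fell, 1 rose and 4 did not pass, beside 27.5% lower and 39.6% higher of all probe sets. *Aspn*, which encodes asporin of cartilage and periosteum, fell by 4.41 (adjusted p = 8.53e-09) and was at −1.93 after level adjustment (adjusted p = 0.00259). It measured 5.94, 6.44 and 6.23 on the NCP arrays, within background, against 10.28 to 11.04 in total embryo. The cornea and cartilage genes *Kera* (−2.34, adjusted p = 3.14e-06) and *Prelp* (−1.69, adjusted p = 4.5e-05) fell too, but were at −0.29 and 0.021 after level adjustment. *Omd* (−0.26, adjusted p = 0.369) and *Epyc* (0.37, adjusted p = 0.165) did not pass.

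For the PDGF receptors the other genes of the pathway are the ligands and a receptor-like gene, of which 3 of 5 fell, beside 27.5% of all probe sets. *Pdgfc* (−1.29, adjusted p = 1.48e-05) and *Pdgfa* (−0.75, adjusted p = 0.00957), ligands of the alpha receptor, were lower, and both lay below the *Olfr* 95th percentile on all NCP arrays. *Pdgfb* (0.0047, adjusted p = 0.981) and *Pdgfd* (0.21, adjusted p = 0.495), ligands of the beta receptor, did not pass, and no gene of the 5 did after level adjustment.

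Beside *Twist1*, 19 mesenchymal transcription factors were measured, of which 7 fell, 1 rose and 11 did not pass (median −0.097). Of all probe sets 27.5% fell and 39.6% rose. *Twist2*, its closest relative, measured 6.92, 6.12 and 5.92 on the NCP arrays and fell by 0.85 (adjusted p = 0.0046), with −0.089 after level adjustment. *Foxf1* (−2.37, adjusted p = 5.72e-07), a factor of visceral mesenchyme, *Prrx1* (−2.02, adjusted p = 2.82e-06), a factor of limb and craniofacial mesenchyme, and *Snai2* (−2.20, adjusted p = 1.71e-06), a factor of epithelial to mesenchymal transition, fell. *Foxf1* and *Snai2* were below the *Olfr* 95th percentile on all NCP arrays. *Snai2* was the only gene of the 19 that was lower after level adjustment (−1.06, adjusted p = 0.00689), where 8.29% of all probe sets were lower. *Tcf21* did not pass (−0.090, adjusted p = 0.811).

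Of 20 matricellular and elastic fibre genes 18 fell (median −1.83), beside 27.5% of all probe sets. *Sparc*, which encodes osteonectin, was at −5.21 (adjusted p = 4.38e-09) and −2.47 after level adjustment (adjusted p = 0.00341). *Fn1*, which encodes fibronectin, was at −3.71 (adjusted p = 1.96e-07) and *Tnc*, which encodes tenascin C, at −2.75 (adjusted p = 5.72e-07), and both remained lower after adjustment (−1.28 and −1.16). *Tgfbi* fell by 2.13 but was at −0.47 (adjusted p = 0.155) after adjustment. Of 10 collagen genes 9 fell (median −2.20). The type I and III collagen genes *Col1a1* (−2.18), *Col1a2* (−2.52) and *Col3a1* (−2.22) were close to each other, and after adjustment *Col1a1* (−0.097, adjusted p = 0.825) and *Col1a2* (−0.42, adjusted p = 0.221) did not pass while *Col3a1* was at −0.48 (adjusted p = 0.0498). Of 12 surface and cytoskeletal genes 11 fell (median −1.42). *Vim*, which encodes the intermediate filament of mesenchymal and neural crest cells, measured 10.28, 8.75 and 10.66 on NCP arrays 1, 2 and 3 against a mean of 10.87 in total embryo. It was lower in deposited values (−0.97, adjusted p = 0.0142) and higher after level adjustment (1.55, adjusted p = 3.79e-05).

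**Figure D4:**
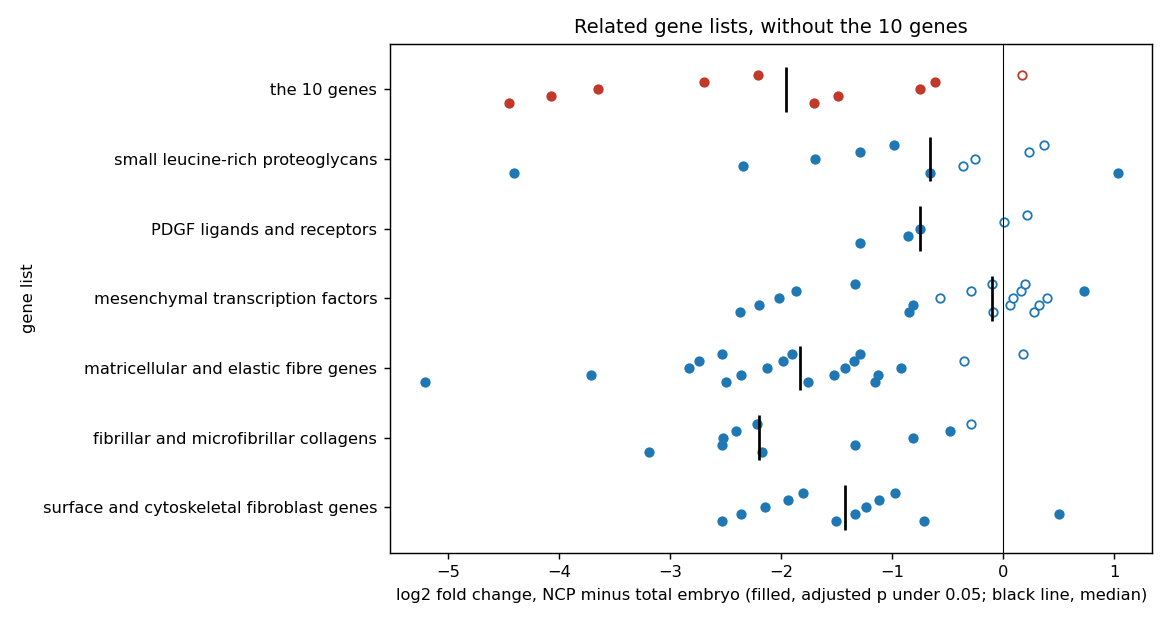
Log2 fold change, NCP minus total embryo (horizontal axis), of the 10 genes (red) and of the other measured genes of each related list (blue), filled where adjusted p is under 0.05, with black lines at the medians. The collagen and matricellular lists have medians of −2.20 and −1.83, near the −1.96 of the 10 genes, and the transcription factor list has −0.097.

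Markers of other cell types that could be present in dissociated urogenital tissue were measured beside these genes. All 6 smooth muscle markers fell (median −2.43), and their mean level was 6.17 to 6.52 on the NCP arrays and 8.37 to 9.02 in total embryo. Their defining gene *Acta2* was within background on each NCP array (5.95, 6.43 and 6.33) and fell by 3.45 (adjusted p = 1.82e-07). All 6 epithelium markers (median −1.81), all 6 immune markers (median −1.41) and 5 of 6 endothelium markers (median −1.16) fell as well, beside 27.5% of all probe sets. None of these lists had a gene above background on all 3 NCP arrays, where 6.95% of all probe sets were. After level adjustment 2 of 6 smooth muscle, 3 of 6 epithelium, 2 of 6 immune and 0 of 6 endothelium markers were lower and none was higher, beside the 8.29% lower and 10.3% higher of all probe sets. Over the 10 fibroblast and mesenchyme genes the mean level was 6.55, 6.31 and 6.23 on NCP arrays 1, 2 and 3 and 8.41 to 8.65 in total embryo. Of 5 erythroid markers 3 rose and 1 fell, and of 5 neuron markers 2 rose and 2 fell, where 39.6% of all probe sets rose. After level adjustment 1 of each list was higher and 0 lower. Of 9 housekeeping genes 9 fell (median −2.69), with mean levels of 7.97, 6.94 and 8.70 on the NCP arrays and 10.4 to 10.6 in total embryo, and after level adjustment 3 were lower and 2 higher. The part of these differences in the result for the 10 genes was not tested.

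Neural crest markers were mixed. Of 6 measured, 3 rose and 2 fell (median 0.27), beside 39.6% higher and 27.5% lower of all probe sets (median 0.23). Their mean levels were 6.47, 6.22 and 6.68 on NCP arrays 1, 2 and 3 and 6.57 to 6.76 in total embryo. *Foxd3*, an early crest factor, rose by 1.33 (adjusted p = 0.000337), and *Erbb3*, the neuregulin receptor of crest and glia, fell by 1.20 (adjusted p = 0.000254) and was below background on the 3 NCP arrays. After level adjustment 2 of the 6 were higher and 2 lower, beside 10.3% higher and 8.29% lower of all probe sets. Named after their values were seen, *Fabp7*, a fatty acid binding protein gene of glial progenitors, fell by 4.39 (−1.74 after level adjustment, adjusted p = 0.00132), and *Cdh19*, a cadherin gene of crest and Schwann cell precursors, rose by 2.30 but was above background on no NCP array and at 0.32 (adjusted p = 0.437) after adjustment. Of these markers only *Sox10* exceeded background on all 3 NCP arrays, as did 6.95% of all probe sets. 

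*Pdgfra* was the gene nearest to the mean profile of the 10, measured as the root mean square difference over 10 arrays after subtracting each gene's total embryo mean (0.158), and *Twist1* was the farthest (1.31), just beyond *Postn* (1.30). Outside the list the nearest of all genes were *Rabgap1* (0.126), *Dbi* (0.132), *Arg1* (0.138), *Pde4dip* (0.138) and *Slk* (0.140). Their log2 fold changes lay between −2.23 and −1.96, and only *Dbi* was above background on all 3 NCP arrays.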

How the data were processed

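Affymetrix mouse Gene 1.0 ST arrays of 3 NCP and 7 total embryo samples were analysed. The authors deposited log2 values, made by RMA in Affymetrix Expression Console 1.1 per the labels; which arrays were normalized together is not given in the sources used here. The labels name a GeneChip One-Cycle labelling kit, the methods NuGEN WT-PICO amplification. What this did to the range of the NCP values was not tested.

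The table holds 34760 probe sets. After removal of 6568 controls, 28192 were fitted in limma 3.58.1 (R 4.3.3) with group as the only term and Benjamini-Hochberg adjustment over all (threshold 0.05). The moderated test had a prior of 4.65 degrees of freedom and a prior SD of 0.31. Of the probe sets tested, 21640 carry 1 symbol, 1321 several and 5231 none in the platform annotation, and 21553 symbols matched RefSeq. Where several probe sets carried a gene's symbol alone, the brightest on average over the 10 arrays was used. The number of arrays limits the precision.

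Background was the 95th percentile of *Olfr* genes on each array. A bound is the total embryo mean minus the mean over NCP arrays of the higher of the gene's value and that percentile. It holds only on the scale of the values used, which are the deposited ones unless another is named. Level adjustment used a lowess span of 0.3. Promoter windows came from RefSeq (GRCm38.p6), with 6 of the 10 genes matched in 7 windows. Python 3.11.15 and matplotlib 3.10.9 drew the figures, and the fit was tested on simulated data. The simulation gave both groups the spread of the total embryo arrays. It does not show how the fit behaves at the spread and range of the NCP arrays.

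Named genes were the 10 members, fixed genes of related lists and the 5 genes nearest in profile, named whatever their values. Some listed genes are not reported here. *Nyx*, *Cthrc1*, *Fabp7* and *Cdh19* were named after their values were seen. The members, lists and tests were chosen with earlier results of these data known. Alternatives changed the control arrays, RNA code handling, normalization, variance model, filter, probe set choice, threshold and background, and left out each array in turn.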

Additional observations from a re-analysis of the deposited data

How the results depend on the processing

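*Postn*, *Dcn* and *Bgn* were called lower in all 28 alternatives, from −6.07 to −1.90, −5.69 to −1.58 and −5.27 to −1.31. *Lum* lost the call in 1, *Pdgfra* in 1 (−2.10 against the single total embryo array, adjusted p = 0.0724), *Ogn* and *Fmod* in 4, *Pdgfrb* in 14 and *Thy1* in 8. In 3 of these *Thy1* reversed, to 0.10 with cyclic loess, 0.11 with level adjustment and 0.025 with level adjustment without NCP array 2, an alternative added after seeing the data. *Twist1* reversed to −0.18 against the single total embryo array and to −1.45 with *Olfr* centring. The number of the 10 genes lower was 4 against the single array and 5 with level adjustment, with or without NCP array 2. The number lower among related genes, 54, was 5, 11 and 15 in those 3 settings and 22 with cyclic loess. The median of the 10 genes was −0.83 with cyclic loess, −3.57 with *Olfr* centring, −0.62 with level adjustment and −0.72 without NCP array 2 in addition. The number above background on every NCP array was 8 at the *Olfr* 50th percentile, 0 at the 99th, 8 with cyclic loess and 9 with either level adjustment. No share of all probe sets stands beside these counts, so they cannot be read as a trait of the 10 genes. The median bounded difference, 1.17, was 1.92 at the 50th percentile, 0.62 at the 99th, 0.46 with quantile normalization, 0.74 with cyclic loess, 2.79 with *Olfr* centring and 0.55 and 0.66 with the level adjustments. The causes were not tested.

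Leaving out each array in turn gave 8 to 9 of the 10 genes lower, beside 7371 to 7930 of the 28192 probe sets. It gave a median of −2.11 to −1.71, a bounded difference of 1.10 to 1.24 and 53 to 54 related genes lower. From 1 to 3 of the 10 genes were above background (3 without NCP array 2, beside 13% of probe sets). Of the 10 genes only *Pdgfrb* lost a call. Over all probe sets, 7747 lower and 11158 higher became 691 and 364 against the single array, 4183 and 5761 with arrays averaged per RNA code, 4506 and 4777 with cyclic loess, 21439 and 1524 with *Olfr* centring and 2336 and 2903 with level adjustment. The number higher was 6370 with quantile normalization, 2898 without dim probe sets and 7081 with the mean of a gene's probe sets. The median of all probe sets, 0.23, was 0.11 with arrays centred on their medians and −1.39 with *Olfr* centring. No paired analysis was possible because the labels number no replicates, and the numbers given here follow accession order and pair nothing. On the NCP arrays, signal near background limits the size of a decrease for genes that did not exceed it. Genes above background also changed with scaling. *Vim* went from −0.97 in deposited values to 1.55 after level adjustment, and *Twist1* from 0.17 to 1.05.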
